A study of Rattus norvegicus with 47 samples.

Results

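The plasma membrane carriers of amino acids and of related small solutes were followed through rat liver tumours, from small foci to carcinomas. The set held every gene of the solute carrier families Slc1a, Slc3a, Slc6a, Slc7a, Slc36a, Slc38a and Slc43a that had a probe set with a single symbol, except Slc1a2, Slc1a4 and Slc7a11, and came to 50 of the 14217 genes measured. The Slc6a family gave 16 of them, Slc7a 14, Slc38a 9, Slc1a 4, Slc36a 3, and Slc3a and Slc43a 2 each. Each gene was read from 1 probe set, the one with the highest mean within a tissue preparation. Slc7a6os fell in by its letters alone: it is the gene beside Slc7a6 on the opposite strand and is not a carrier, so it was described apart.

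Carriers of these families decide which amino acids a cell can take up and exchange. The Slc7a carriers of large neutral and dibasic amino acids work as exchangers bound to a heavy chain of the Slc3a family, the Slc38a carriers and Slc1a5 bring glutamine and other small neutral amino acids in with sodium, and the Slc6a carriers use sodium and chloride to move glycine, proline, taurine, creatine, GABA and the monoamines. The liver takes amino acids from portal blood for protein synthesis, ureagenesis and gluconeogenesis, and dividing cells are known for raising the import of essential amino acids, which feeds the mTORC1 kinase, while amino acid shortage acts on carrier genes through the transcription factor ATF4.

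The study compared lesion types with surrounding liver on single-colour Affymetrix arrays, 44 of which entered the comparisons and came from 7 animals. All were male Wistar rats given N-nitrosomorpholine, a liver carcinogen, at 250 mg/kg once at 4 weeks of age, and after 3 weeks phenobarbital, a tumour promoter in rodent liver, at 50 mg/kg per day in drinking water for up to 17 months, and the surrounding liver had the same exposure. Frozen tissue gave surrounding liver (7 arrays, 5 animals), nodules (5 arrays, 3 animals), adenomas (6 arrays, 2 animals), carcinomas (4 arrays, 3 animals) and carcinomas labelled with a beta-catenin mutation (4 arrays, 3 animals). Laser-microdissected, formalin-fixed and paraffin-embedded (FFPE) tissue gave surrounding liver (4 arrays, 4 animals), foci (9 arrays, 3 animals) and adenomas (5 arrays, 3 animals). Several arrays of a group came from the same animal, so the animal was a term of every fit, and only animals 14 and 23 gave frozen adenomas. The source name of beta-catenin carcinoma replicate 1 did not mention the mutation, and that of FFPE adenoma replicate 4 read as surrounding tissue, and results that change without either are given without it. The 4 arrays titled as animal 21 (1 surrounding, 2 carcinomas and 1 beta-catenin carcinoma) carry 4 different source animal numbers, and the title was followed, so the animal term and the counts of animals in both carcinoma groups rest on it. Another 3 arrays, of an animal labelled C43, entered no comparison.

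The tissue was hepatocytic in every group: the mean of 9 hepatocyte markers lay between 12.98 and 13.76 (log2) on all frozen arrays. On the FFPE arrays it lay between 13.10 and 13.43. It was 13.62 to 13.74 in frozen surrounding liver and 12.98 to 13.52 in beta-catenin carcinomas. Of the 9, 4 were called lower and 1 higher in frozen adenomas, and 3 were lower in each carcinoma group (limma). In foci and in FFPE adenomas 1 was higher and 1 lower, and in nodules 0 were called. Of 9 macrophage markers, 4 were called lower in frozen adenomas, 4 in carcinomas, 6 in beta-catenin carcinomas, 3 in foci, and 0 in nodules and in FFPE adenomas (limma), and the mean of the list was 8.90 to 9.49 in frozen surrounding liver and 7.72 to 8.56 in beta-catenin carcinomas. The cholangiocyte markers stood high on 5 frozen arrays, with a mean of 7.20 to 8.43 against 5.01 to 6.67 on the other 21. Of these 6 markers, 2 were called higher in frozen adenomas (Krt19 by 4.37, adjusted p = 0.00369). In FFPE adenomas 2 of 6 were called higher (Krt19 by 2.53, adjusted p = 0.0301). Of 5 blood cell markers, 3 were called lower in frozen adenomas and 2 in beta-catenin carcinomas. Lymphocyte markers had 2 of 8 lower in frozen adenomas, and endothelial markers 1 of 7 lower in beta-catenin carcinomas. Of 12 stellate cell and fibroblast markers, 3 were called higher in foci and 3 in FFPE adenomas (Col1a1 by 1.21 and 2.18, adjusted p = 0.0278 and 3.35e-04). In carcinomas 1 was lower, and in beta-catenin carcinomas 2 were higher and 1 lower. Beside these counts, 15.4% of all genes were called higher and 9.57% lower in frozen adenomas. The shares were 4.48% and 6.91% in carcinomas, and 7.74% and 9.58% in beta-catenin carcinomas. They were 1.81% and 1.36% in foci, and 1.29% and 0.872% in FFPE adenomas. The 5 cholangiocyte-high frozen arrays were adenoma replicates 1, 2 and 6, nodule replicate 4 and beta-catenin carcinoma replicate 1, and results that change without them are given both ways. Leaving them out was an alternative chosen after seeing the data. In such bulk samples, fewer cells of a type and less RNA per cell cannot be told apart. The part these markers play in the changes below was not tested.

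A gene was called when limma's moderated test gave an adjusted p under 0.05 over all genes. Of the 50 members, 16 were called in at least 1 of 10 comparisons within a tissue preparation. Against frozen surrounding liver, 6 members were called higher and 7 lower in adenomas, where 15.4% and 9.57% of all genes were (25% in all). In carcinomas 4 were higher and 5 lower (all genes 4.48% and 6.91%, 11.4% in all). In beta-catenin carcinomas 3 were higher and 6 lower (all genes 7.74% and 9.58%, 17.3% in all). In nodules 1 was lower and none higher (all genes 0.0352% and 0.19%, 0.225% in all, with 1811 genes and 10 members at an unadjusted p under 0.05). In FFPE tissue 1 was higher and 4 lower in foci (all genes 1.81% and 1.36%, 3.18% in all), and 1 was higher and 3 lower in adenomas (all genes 1.29% and 0.872%, 2.16% in all). In frozen adenomas and beta-catenin carcinomas the members' shares lay near those of all genes. In FFPE tissue 8% of members were lower in foci and 6% in adenomas, and the nodule share rests on 1 member. The median change of the 50 members lay between -0.10 and 0.01 in these 6 comparisons, against -0.02 to 0.02 over all genes, with called members in both directions in all but nodules.

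**Figure D1:**
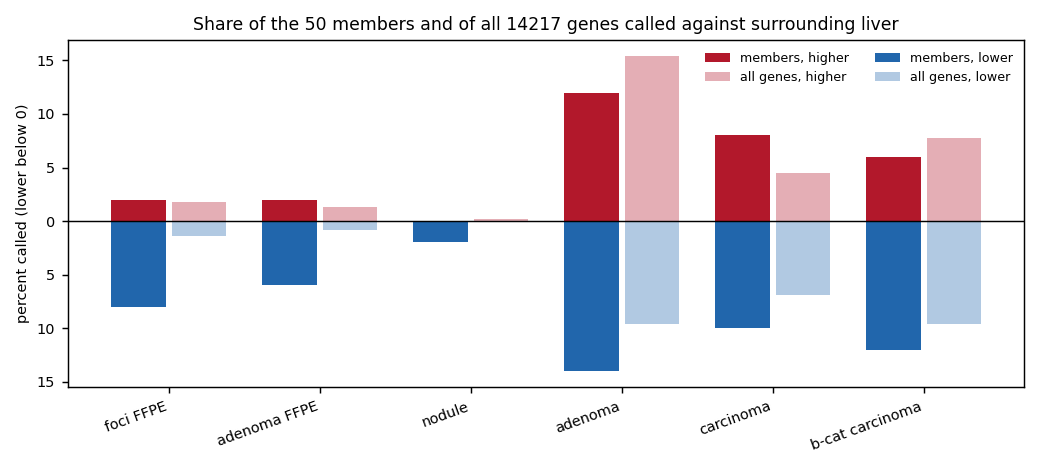
Percent of the 50 members (solid bars) and of all 14217 genes (pale bars) called higher (above 0) or lower (below 0) than surrounding liver, for each lesion type. Members reached 12% higher and 14% lower in frozen adenomas, beside 15.4% and 9.57% of all genes, and 8% lower in FFPE foci, beside 1.36%.

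**Figure D2:**
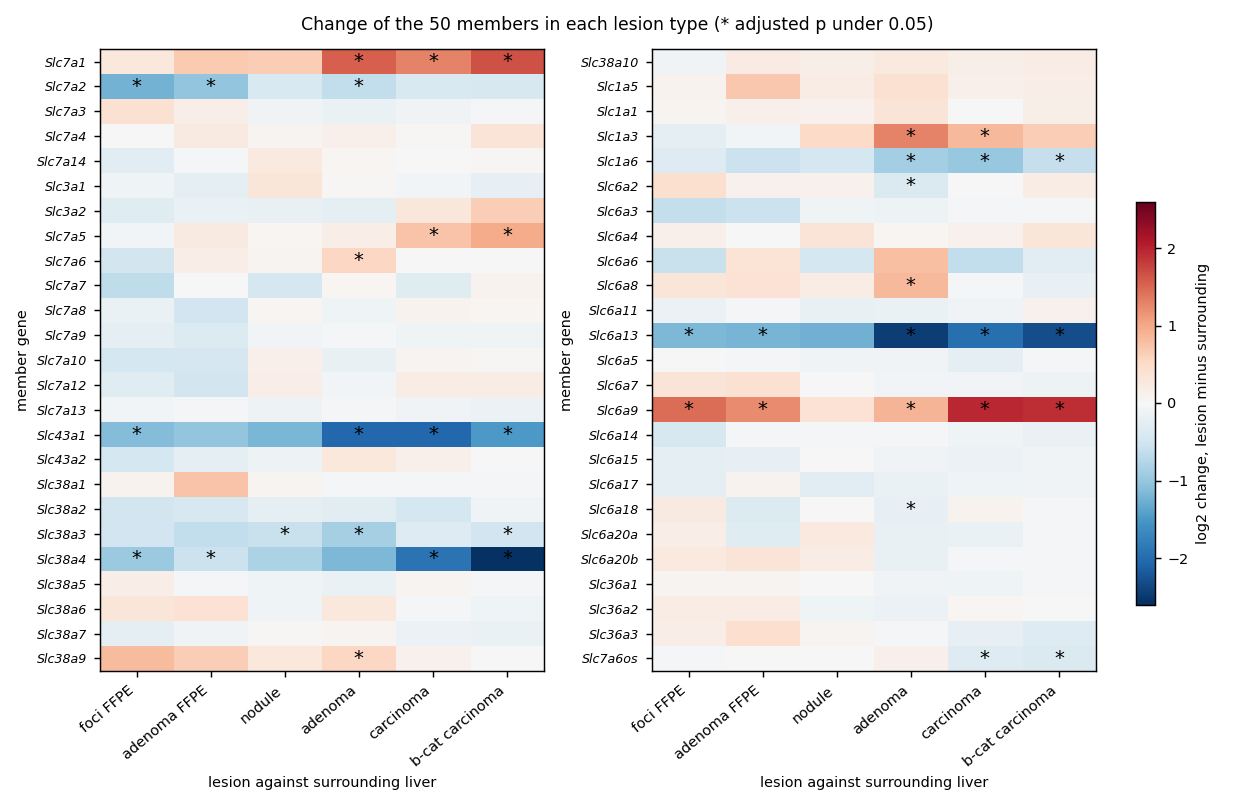
Log2 change of each of the 50 members (rows, ordered by role) against surrounding liver in 6 lesion types (columns), red for higher and blue for lower, with a star where the adjusted p was under 0.05. Most stars lie on the rows of Slc7a1 and Slc6a9, in red, and of Slc6a13, Slc43a1, Slc38a4, Slc38a3, Slc7a2 and Slc1a6, in blue.

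The 5 cationic amino acid carriers and their relatives split. Slc7a1, the widely expressed arginine and lysine importer CAT1, was higher in every frozen tumour type but nodules, and Slc7a2, the carrier that hepatocytes are known for, was lower in foci and adenomas. On the frozen arrays Slc7a1 ran from 4.45 to 5.43 in surrounding liver (median 4.93, log2). It ran from 5.91 to 7.17 in adenomas (median 6.50). The carcinomas stood at 6.54, 5.5, 6.59 and 6.29, and the beta-catenin carcinomas at 6.39, 6.97, 6.24 and 6.50. No tumour array reached down to the surrounding range, and the difference had the same sign in both adenoma animals and in all 3 animals of either carcinoma group. The difference was 1.56 ± 0.24 (log2, SE; 2.94-fold; limma adjusted p = 1.17e-04) in adenomas, 1.30 ± 0.25 (adjusted p = 0.00238) in carcinomas and 1.65 ± 0.24 (adjusted p = 1.14e-04) in beta-catenin carcinomas. Nodules of animal 11 stood at 6.52 and 6.94 and those of animals 10 and 14 at 5.40, 5.51 and 5.31, and within animals they differed from surrounding liver by 1.31, 0.77 and -0.01 in turn. The group was not called (0.64 ± 0.24, adjusted p = 0.253). In FFPE tissue, where Slc7a1 was read from another of its probe sets, the difference was 0.27 in foci (adjusted p = 0.820) and 0.68 in adenomas (adjusted p = 0.514), and the probe set used in frozen tissue gave 0.24 and 0.61 there (adjusted p = 0.816 and 0.493 among probe sets). The probe set used in FFPE tissue gave 0.55, 0.66 and 1.0 in the 3 frozen comparisons of adenomas, carcinomas and beta-catenin carcinomas, all called among probe sets (adjusted p = 0.0156, 0.0160 and 2.89e-04). Both of these probe sets thus rose in frozen tumours, by different sizes. The third, with a mean of 3.54, showed no change (-0.06, 0.00 and 0.02).

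Slc7a1 is a textbook target of ATF4, so its promoter was read for the core of the C/EBP-ATF response element, TGATGNAA, on both strands. Promoters (250 bases before to 50 after the gene start, RefSeq GRCr8) were held for 38 of the 50 members, and 2 of them had the motif (5.26%), beside 3.98% of all 33469 promoters. The units differ: members were counted by gene, with a match in any of its promoters, and some had several, while the second share counts single promoters. The members with a match were Slc7a1 (chr12:11664238-11664537, plus strand) and Slc38a1 (chr7:129681352-129681651, minus strand), shown with the motif in capitals, which starts 30 and 142 bases before the gene start. Of these, Slc7a1 was called in 3 lesion types and Slc38a1 in none.
Slc7a1: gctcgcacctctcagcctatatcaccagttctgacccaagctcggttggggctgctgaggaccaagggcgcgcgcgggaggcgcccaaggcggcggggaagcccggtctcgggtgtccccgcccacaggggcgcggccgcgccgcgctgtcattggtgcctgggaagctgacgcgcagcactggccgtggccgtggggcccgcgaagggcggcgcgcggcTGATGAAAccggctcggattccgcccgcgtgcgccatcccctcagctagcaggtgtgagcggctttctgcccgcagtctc
Slc38a1: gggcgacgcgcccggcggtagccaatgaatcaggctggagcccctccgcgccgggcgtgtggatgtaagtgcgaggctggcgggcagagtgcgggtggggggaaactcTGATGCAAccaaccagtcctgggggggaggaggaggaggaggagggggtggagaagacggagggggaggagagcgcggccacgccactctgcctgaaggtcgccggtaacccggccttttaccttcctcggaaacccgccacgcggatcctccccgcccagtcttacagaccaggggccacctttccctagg

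Slc7a2 (CAT2) moved the other way. In FFPE surrounding liver it stood at 8.76, 9.42, 8.69 and 8.69, in foci from 6.80 to 7.96 (median 7.67) and in adenomas at 7.81, 7.62, 8.60, 7.95 and 7.71. Every lesion array lay below every surrounding array. It fell by 1.23 ± 0.23 in foci (2.35-fold; adjusted p = 0.00115) and by 1.03 ± 0.25 in adenomas (2.04-fold; adjusted p = 0.0238). The adenoma call was lost without surrounding replicate 1 or 2 or adenoma replicate 2, 4 or 5 (-1.04 to -0.94; adjusted p = 0.0567 to 0.169), and with no animal term (-0.95, adjusted p = 0.101). Adenoma replicate 4 is the array whose source name reads as surrounding tissue (-0.94 without it, adjusted p = 0.0639). In frozen tissue, where its probe set gave 5.28 to 6.0 in surrounding liver and 4.73 to 5.53 in adenomas, the groups overlapped and it fell by 0.63 ± 0.14 (adjusted p = 0.00278). In carcinomas and beta-catenin carcinomas the difference was -0.39 and -0.42 (adjusted p = 0.108 and 0.0554). Without the 5 cholangiocyte-high arrays these became -0.40 and -0.47 (adjusted p = 0.0245 and 0.0158), and the second was called with quantile normalization too (-0.44, adjusted p = 0.0477). The other members of the subfamily, Slc7a3, Slc7a4 and Slc7a14, were called nowhere.

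Of the 12 heterodimeric exchangers, their heavy chains and the Slc43a carriers, Slc43a1 changed most. Slc43a1 (LAT3) is a sodium-independent facilitator of branched-chain and other large neutral amino acids with high expression in liver. It ran from 7.73 to 8.96 in frozen surrounding liver (median 8.20) and from 5.37 to 6.58 in adenomas (median 5.99). The carcinomas stood at 6.2, 6.38, 6.01 and 5.72, and the beta-catenin carcinomas at 7.05, 6.40, 5.65 and 7.31. None of these 14 tumour arrays reached the surrounding range. It fell by 2.04 ± 0.27 in adenomas (4.11-fold; adjusted p = 4.05e-05). The change was -2.05 ± 0.29 in carcinomas (4.14-fold; adjusted p = 3.10e-04) and -1.5 ± 0.28 in beta-catenin carcinomas (2.83-fold; adjusted p = 9.96e-04). Nodules lay between, at 7.23, 7.15, 7.93, 7.88 and 6.61, with a difference of -1.18 that was not called (adjusted p = 0.0705). It did become a call without adenoma replicate 3 or beta-catenin carcinoma replicate 3 or 4 (-1.20, -1.16 and -1.21; adjusted p = 0.0494, 0.0488 and 0.0378).

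In FFPE foci Slc43a1 ran from 4.80 to 6.37 (median 5.53), against 6.10, 6.96, 7.03 and 7.50 in surrounding liver. Only surrounding replicate 1, of animal 10, overlapped the foci, and within that animal the foci were still lower by 0.94. It fell by 1.12 ± 0.29 (adjusted p = 0.0266). This call was lost without surrounding replicate 1, 3 or 4 or foci replicate 9, at -1.16, -1.17, -0.78 and -1.08 (adjusted p = 0.0805, 0.0953, 0.283 and 0.0501). FFPE adenomas stood at 5.10, 5.03, 6.71, 6.73 and 5.41, the pair near 6.7 being of animal 14, and were not called (-1.03, adjusted p = 0.106).

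Slc7a5 (LAT1), the exchanger that brings leucine into dividing cells, is known for its rise in many cancers. It was called higher in the 2 carcinoma groups and not in adenomas. It ran from 5.67 to 7.18 in frozen surrounding liver (median 6.59). The carcinomas stood at 7.57, 6.90, 7.87 and 6.95 and the beta-catenin carcinomas at 6.92, 7.70, 7.48 and 7.63. The adenomas ran from 5.68 to 6.48 (median 6.26), inside the surrounding range. The carcinoma arrays lay at its upper end or above, with overlap. The difference was 0.96 ± 0.22 in beta-catenin carcinomas (1.95-fold; adjusted p = 0.00444; 1.37 without replicate 1, adjusted p = 6.27e-05), and 2 of 3 animals shared the sign. It was 0.74 ± 0.23 in carcinomas (1.68-fold; adjusted p = 0.0392), higher in 3 of 3 animals. That call was lost with the labelled control set in place of the animal (0.75, adjusted p = 0.0739) and in 8 of 26 fits that left out 1 array (0.61 to 0.89 over the 26), with the highest adjusted p, 0.152, without carcinoma replicate 1. In adenomas it was 0.16 (adjusted p = 0.616). Set directly against adenomas, carcinomas gave no call among the 12 exchangers, heavy chains and Slc43a carriers (highest change 0.58, lowest adjusted p = 0.182). The surrounding arrays themselves split, with 7.18, 6.98 and 6.95 in animals 10 and 11 and 5.67 to 6.59 in the others.

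Slc3a2 (4F2hc), the heavy chain that carries Slc7a5 to the membrane, stood at 10.23, 10.59, 10.66 and 10.40 in beta-catenin carcinomas against 9.17 to 10.19 in surrounding liver (median 9.73). The arrays did not overlap, yet the difference of 0.63 missed the threshold (adjusted p = 0.0516) and passed it in 7 of the fits that left out 1 array, with 0.60 to 0.71, with quantile normalization (0.65, adjusted p = 0.0469) and without the 5 cholangiocyte-high arrays (0.79, adjusted p = 0.0273). In carcinomas it was 0.29 (adjusted p = 0.478) and in adenomas -0.24 (adjusted p = 0.444).

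Slc7a6 (y+LAT2), an arginine-glutamine exchanger, was called in frozen adenomas alone (0.54 ± 0.19, adjusted p = 0.0445). Adenomas ran from 5.07 to 6.03 and surrounding liver from 4.72 to 5.41, with overlap. The 4 highest of all frozen arrays had high cholangiocyte markers: adenoma replicates 1, 2 and 6 at 6.03, 5.79 and 5.82, and nodule replicate 4 at 6.11. The fifth such array, beta-catenin carcinoma replicate 1, stood at 5.3, inside the surrounding range. Without the 5 such arrays the adenoma difference was 0.18 (adjusted p = 0.437). The call was also lost in 15 of 26 fits that left out 1 array and with the control set as the block (0.49, adjusted p = 0.180). Slc7a7, Slc7a8, Slc7a9, Slc3a1 and Slc43a2, the carriers and heavy chain of epithelial dibasic and neutral transport and LAT4, were called nowhere. Slc7a7 had the lowest of their changes, -0.66 in foci (adjusted p = 0.361). Slc7a10, Slc7a12 and Slc7a13 were not called either.

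Among the 10 sodium-coupled carriers of small neutral amino acids, Slc38a4 and Slc38a3, the abundant system A and system N carriers of hepatocytes, were lower, and Slc38a9 was higher in adenomas. Slc38a4 (SNAT4) was tightly held in frozen surrounding liver, from 11.69 to 12.15 (median 11.95). Values in carcinomas were 9.61, 10.69, 8.28 and 10.24. The beta-catenin carcinomas stood at 11.81, 8.16, 7.83 and 8.80. All arrays of both groups except beta-catenin carcinoma replicate 1, the one whose source name lacks the mutation, lay below the surrounding range. It fell by 1.92 ± 0.54 in carcinomas (3.79-fold; adjusted p = 0.0252) and by 2.56 ± 0.52 in beta-catenin carcinomas (5.91-fold; adjusted p = 0.00192), which became 3.64 on the log2 scale without that array (-3.64, adjusted p = 9.72e-06). The carcinoma call was lost without carcinoma replicate 1, 3 or 4 or surrounding replicate 5, at -1.52, -1.61, -2.20 and -1.74 (adjusted p = 0.193, 0.0714, 0.0551 and 0.0873), and with the control set as the block (-2.05, adjusted p = 0.0580). The 4 arrays with the lowest Slc38a4 (7.83, 8.16, 8.28 and 8.80) also had low hepatocyte marker means (12.98, 13.20, 13.30 and 13.31, against 13.62 to 13.74 in surrounding liver), and the part of this in the result was not tested.

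The frozen adenomas also lay below every surrounding array for Slc38a4, from 9.85 to 11.34 (median 10.88), though the difference was not called (-1.18, adjusted p = 0.0957). It was called without beta-catenin carcinoma replicate 1 in the fit (-1.41, adjusted p = 0.00376) and without the 5 cholangiocyte-high arrays (-1.30, adjusted p = 0.0179). All frozen groups share 1 estimate of the spread. In FFPE tissue, surrounding liver stood at 12.12, 12.52, 12.53 and 12.57 and foci ran from 10.90 to 11.94 (median 11.46), with no overlap, and it fell by 0.96 ± 0.13 (1.95-fold; adjusted p = 2.33e-05), lower in 3 of 3 animals and in every fit that left out 1 array. FFPE adenomas stood at 11.74, 11.56, 12.28, 11.99 and 11.47 and fell by 0.56 ± 0.15 (adjusted p = 0.0358). That call was lost in 6 of 18 fits that left out 1 array (surrounding replicates 1, 2 and 4 and adenoma replicates 2, 4 and 5; -0.64 to -0.38, adjusted p up to 0.267; -0.54 and 0.0864 without adenoma replicate 4), with the mean of the probe sets (-0.56, adjusted p = 0.0565), with no intensity trend (-0.56, adjusted p = 0.278) and without the animal term (-0.63, adjusted p = 0.153).

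**Figure D3:**
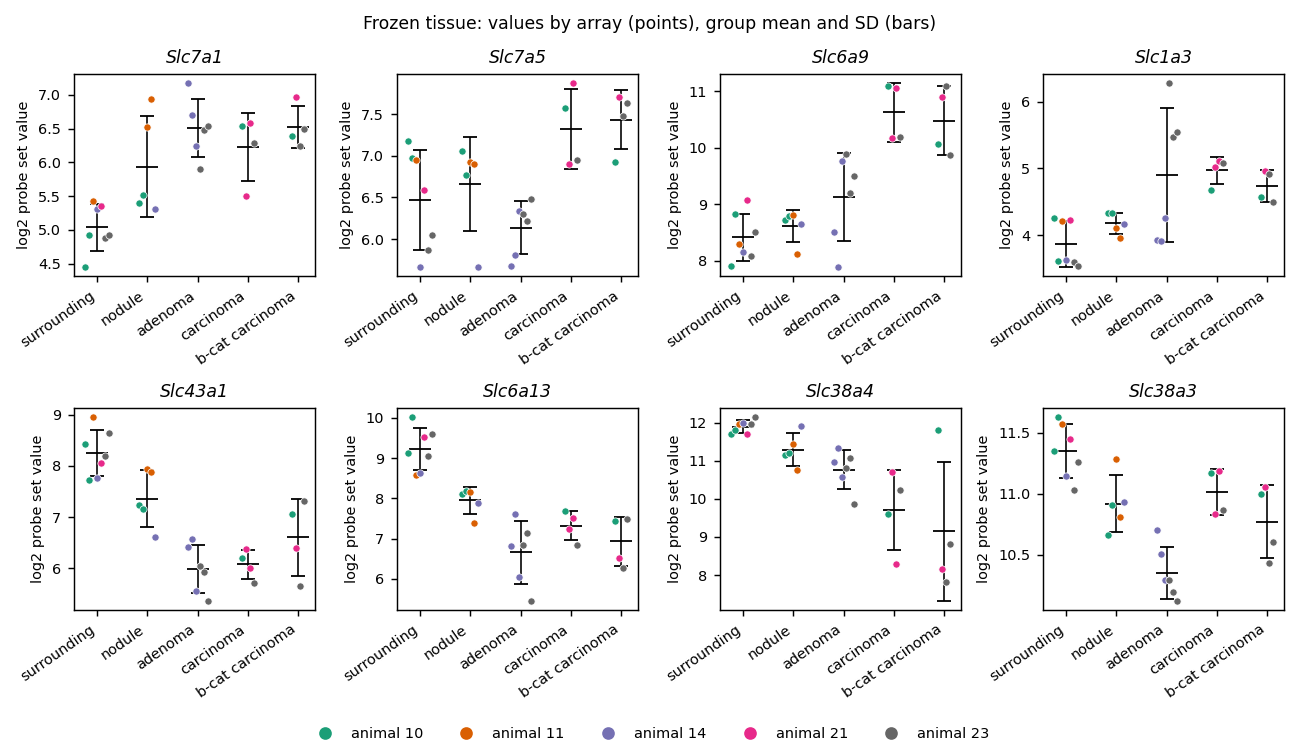
Log2 probe set values of 8 members on each frozen array (points, coloured by animal), with group mean and SD (bars), in surrounding liver and 4 lesion types. Slc7a1 and Slc6a9 rise from surrounding liver to the carcinoma groups, Slc43a1 and Slc6a13 drop, and Slc38a4 shows beta-catenin carcinoma replicate 1 at 11.81, apart from the 3 others at 7.83 to 8.80.

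Slc38a3 (SNAT3), which exchanges glutamine and histidine in hepatocytes, was 11.03 to 11.63 in frozen surrounding liver (median 11.35) and 10.12 to 10.70 in adenomas (median 10.29), with no overlap. It fell by 0.87 ± 0.11 in adenomas (1.83-fold; adjusted p = 2.83e-05). The beta-catenin carcinomas stood at 11.00, 11.05, 10.43 and 10.61 and fell by 0.49 ± 0.12 (adjusted p = 0.00557). Carcinoma arrays read 11.17, 10.83, 11.18 and 10.86 and were not called (-0.33, adjusted p = 0.0809), though they were with the control set as the block (-0.45, adjusted p = 0.0442). Nodules stood at 10.66, 10.91, 11.29, 10.81 and 10.93, and Slc38a3 was the single member called in them (-0.57 ± 0.11, adjusted p = 0.0398), lower in 3 of 3 animals. The nodule call was lost with no animal term (-0.43, adjusted p = 0.107), with the control set as the block (-0.47, adjusted p = 0.249), without the 5 cholangiocyte-high arrays (-0.49, adjusted p = 0.0855) and in 10 of 26 fits that left out 1 array, with the highest adjusted p, 0.182, without nodule replicate 1. In FFPE tissue Slc38a3 was called in neither foci nor adenomas, and both overlapped surrounding liver (medians 10.58, 9.93 and 11.05). The FFPE adenoma difference was called without adenoma replicate 1 (-0.81, adjusted p = 0.0319).

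Slc38a9, the lysosomal arginine sensor that signals to mTORC1, ran from 5.92 to 6.79 in frozen adenomas (median 6.29) against 5.24 to 5.93 in surrounding liver (median 5.69), with overlap at adenoma replicate 2 alone. The difference was 0.55 ± 0.13 (adjusted p = 0.00447; 0.38 with the control set as the block, adjusted p = 0.0863), and both carcinoma groups were near 0 (0.11 and -0.01). Slc38a2, the amino-acid-regulated SNAT2, was called nowhere (-0.47 to -0.09 over the 6 lesion types). Slc38a1, its neighbour on chromosome 7, was also called nowhere (-0.06 to 0.73), nor was Slc1a5 (ASCT2, 0.09 to 0.70), except that its adenoma difference of 0.40 (adjusted p = 0.102) was called without adenoma replicate 3 or carcinoma replicate 4 (0.49 and 0.45; adjusted p = 0.0312 and 0.0487). Slc38a5, Slc38a6, Slc38a7 and Slc38a10 were not called.

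Of the 9 Slc6a carriers of amino acids, Slc6a9 alone rose. Slc6a9 encodes GLYT1, which imports glycine with sodium and chloride. In FFPE surrounding liver it stood at 9.87, 9.03, 9.62 and 9.41, in foci from 10.28 to 11.62 (median 11.03) and in adenomas at 10.59, 10.83, 10.65, 10.90 and 10.89. No lesion array overlapped surrounding liver, and all 3 animals of each group were higher. The difference was 1.45 ± 0.18 in foci (2.73-fold; adjusted p = 5.16e-06) and 1.23 ± 0.20 in adenomas (2.34-fold; adjusted p = 3.64e-04).

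In frozen tissue Slc6a9 ran from 7.91 to 9.08 in surrounding liver (median 8.30). In carcinomas the arrays stood at 11.09, 10.17, 11.06 and 10.18 and the beta-catenin carcinomas at 10.07, 10.89, 11.09 and 9.87, all above it. The difference was 1.97 ± 0.34 in carcinomas (3.91-fold; adjusted p = 0.00104) and 1.91 ± 0.33 in beta-catenin carcinomas (3.77-fold; adjusted p = 4.54e-04). Adenomas ran from 7.89 to 9.89 (median 9.35), with adenoma replicate 1 inside the surrounding range at 8.52 and replicate 2 just below it at 7.89, both of animal 14. They were called at 0.89 ± 0.32 (adjusted p = 0.0460), which was lost in 16 of 26 fits that left out 1 array (0.73 to 1.07, adjusted p up to 0.110), with the control set as the block (0.94, adjusted p = 0.106), with no animal term (0.71, adjusted p = 0.0650), with quantile normalization (0.84, adjusted p = 0.0592) and with the mean of the probe sets (0.22, adjusted p = 0.650). Replicates 1 and 2 are cholangiocyte-high, and without the 5 such arrays the adenoma difference was 1.37 (adjusted p = 0.00391). Nodules stood at 8.72, 8.79, 8.81, 8.12 and 8.65 and were not called (0.37, adjusted p = 0.692).

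The 3 probe sets of Slc6a9 gave like values in the carcinoma groups and unlike values in adenomas. All rose in carcinomas (1.94, 1.97 and 2.41) and in beta-catenin carcinomas (1.80, 1.91 and 2.32), each called among probe sets (adjusted p between 2.08e-04 and 0.00230). In frozen adenomas they gave 0.37, 0.89 and -0.58. Between carcinomas and adenomas, the probe set used for the gene gave 1.08 (adjusted p = 0.102 among probe sets), while the others gave 1.57 and 2.99 (adjusted p = 0.0208 and 0.0183). Which transcripts each probe set reads was not analysed here. Slc6a18 (B0AT3), a carrier of kidney and gut, was called lower in frozen adenomas at -0.21 ± 0.07 (adjusted p = 0.0303), a small difference with overlapping groups (4.85 to 5.17 against 4.95 to 5.38) that was lost without the animal term (-0.18, adjusted p = 0.0776), without surrounding replicate 4 or 6 or adenoma replicate 1 or 6 (-0.21 to -0.16) and without the 5 cholangiocyte-high arrays (-0.17, adjusted p = 0.183). Slc6a5, Slc6a7, Slc6a14, Slc6a15, Slc6a17, Slc6a20a and Slc6a20b were not called.

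Among the 7 carriers of GABA, taurine, creatine and monoamines, Slc6a13 (GAT2), known for taking up GABA and taurine into periportal hepatocytes, was lower in all lesion types but nodules. In frozen surrounding liver it ran from 8.59 to 10.03 (median 9.12), and in adenomas from 5.46 to 7.62 (median 6.84). Carcinomas gave 7.70, 7.23, 7.53 and 6.85 and the beta-catenin carcinomas at 7.44, 6.52, 6.28 and 7.48. No lesion array overlapped surrounding liver, and the same held for nodules, at 8.11, 8.19, 8.16, 7.40 and 7.89. It fell by 2.44 ± 0.33 in adenomas (5.43-fold; adjusted p = 4.77e-05), by 1.97 ± 0.36 in carcinomas (3.91-fold; adjusted p = 0.00137) and by 2.32 ± 0.34 in beta-catenin carcinomas (4.98-fold; adjusted p = 1.18e-04). Nodules gave -1.25, which missed the threshold (adjusted p = 0.109). In FFPE tissue surrounding liver stood at 9.76, 9.48, 8.99 and 9.77, foci ran from 8.0 to 8.86 (median 8.25), and adenomas stood at 9.09, 8.76, 8.74, 7.54 and 7.87. Foci lay below every surrounding array, and adenoma replicate 1 overlapped surrounding replicate 3. It fell by 1.17 ± 0.22 in foci (2.25-fold; adjusted p = 0.00159) and by 1.20 ± 0.24 in adenomas (2.30-fold; adjusted p = 0.00555). The adenoma call was lost without surrounding replicate 2 (-1.13, adjusted p = 0.0702). All animals with both tissues were lower in every one of these comparisons.

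**Figure D4:**
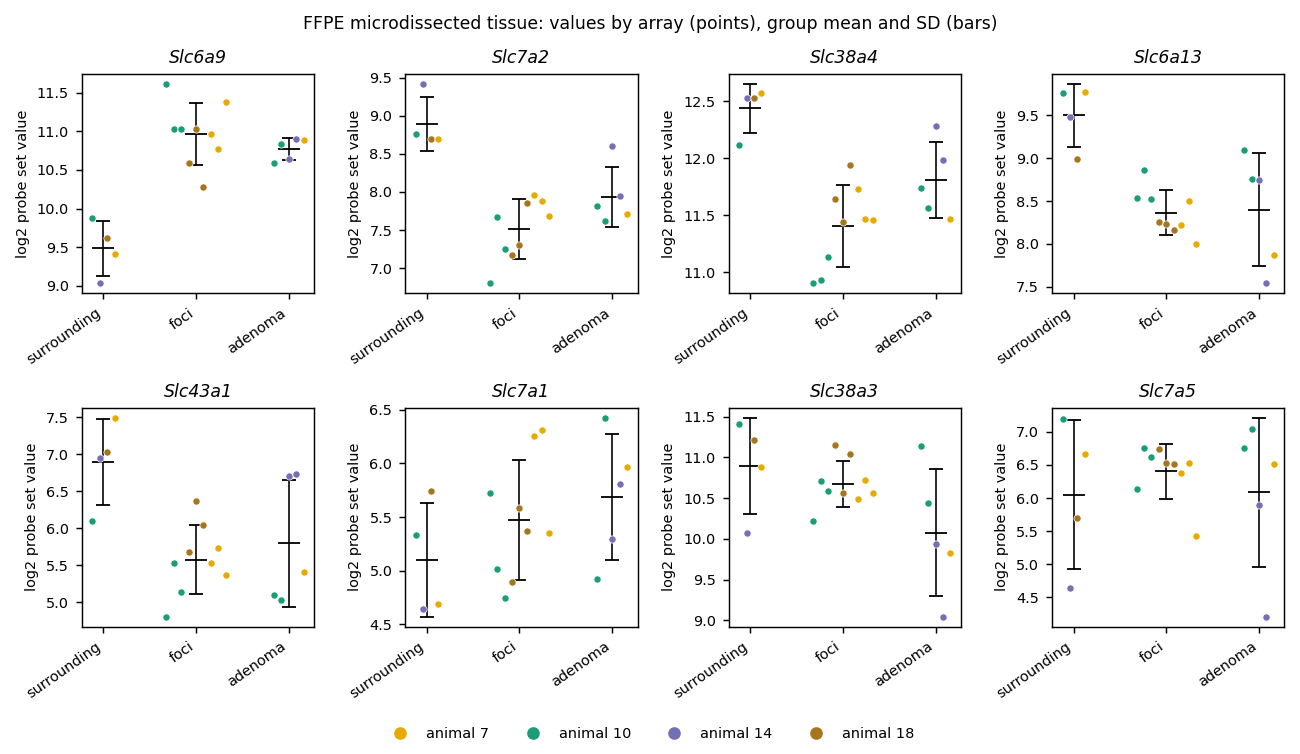
Log2 probe set values of 8 members on each FFPE array (points, coloured by animal), with group mean and SD (bars), in surrounding liver, foci and adenomas. Slc6a9 lies above surrounding liver on every lesion array and Slc7a2 below, while Slc7a1 and Slc7a5 overlap.

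Slc6a6 (TauT), the taurine carrier, was called nowhere, yet its arrays spread widely. The adenomas stood between 6.2 and 9.17 and surrounding liver between 6.35 and 7.36. The 5 frozen arrays with high cholangiocyte markers held the 5 highest Slc6a6 values, 8.03 to 9.17, and the other 21 ran from 5.44 to 7.36. With them the differences were -0.64 in carcinomas and -0.28 in beta-catenin carcinomas (adjusted p = 0.501 and 0.763), and 0.78 in adenomas (adjusted p = 0.265). Without those 5, none of them surrounding liver, Slc6a6 was lower by 0.80 in carcinomas and by 1.0 in beta-catenin carcinomas, and the adenoma difference turned to -0.45. Leaving out the highest values also narrows the spread that all frozen groups share, so the fit without them is no test of a fall.

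Slc6a8, the creatine carrier, was called higher in frozen adenomas at 0.84 ± 0.24 (adjusted p = 0.0126), with adenomas at 7.05 to 7.90 (median 7.81) and surrounding liver at 6.81 to 7.40. Adenoma replicate 5 alone overlapped. Its second probe set, the one used for FFPE tissue, gave 0.05 in these frozen adenomas, and the mean of both gave 0.45 (adjusted p = 0.115). Without the 5 cholangiocyte-high arrays it gave 0.67 (adjusted p = 0.0671), and with the control set as the block 0.81 (adjusted p = 0.0730). Slc6a2, the noradrenaline carrier, was called lower in frozen adenomas at -0.38 ± 0.13 (adjusted p = 0.0373), at dim values of 3.68 to 4.26 against 3.81 to 4.64. That was lost with no animal term (-0.30, adjusted p = 0.0560), with the control set (-0.41, adjusted p = 0.0935), without the 5 cholangiocyte-high arrays (-0.26, adjusted p = 0.266) and in 8 of 26 fits that left out 1 array, with the highest adjusted p, 0.225, without surrounding replicate 4. Slc6a3, Slc6a4 and Slc6a11 were not called.

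Of the 3 glutamate carriers, Slc1a3 (EAAT1) was higher and Slc1a6 (EAAT4) lower, both at dim values. Slc1a3 ran from 3.54 to 4.26 in frozen surrounding liver (median 3.63). The adenomas split by animal, with 3.93, 3.91 and 4.26 in animal 14 and 6.27, 5.48 and 5.55 in animal 23, so those of animal 23 lay far above surrounding liver and the highest of animal 14 level with its top. The difference was 1.29 ± 0.25 (2.44-fold; adjusted p = 9.51e-04), and within animals it was 0.40 in animal 14 and 2.19 in animal 23. Values in carcinomas were 4.68, 5.02, 5.11 and 5.08, above every surrounding array (0.85 ± 0.27, adjusted p = 0.0450), and that call was lost in 14 of 26 fits that left out 1 array (0.74 to 0.93, adjusted p up to 0.182). The other 2 probe sets of Slc1a3 gave 0.56 and -0.22 in adenomas and 0.12 and 0.02 in carcinomas, and the mean of the 3 gave 0.33 in carcinomas (adjusted p = 0.152). Beta-catenin carcinomas, at 4.57, 4.97, 4.91 and 4.50, also lay above surrounding liver but were not called (0.65, adjusted p = 0.0913), except without adenoma replicate 4 (0.69, adjusted p = 0.0340).

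Slc1a6 ran from 4.17 to 4.94 in frozen surrounding liver (median 4.71) and from 3.55 to 4.54 in adenomas (median 3.86). Carcinoma arrays read 3.81, 3.65, 3.67 and 3.71, below surrounding liver, and the beta-catenin carcinomas at 3.94, 4.15, 4.18 and 4.11, overlapping it by 1 array. It fell by 0.88 ± 0.16 in adenomas (adjusted p = 4.61e-04), by 0.99 ± 0.17 in carcinomas (adjusted p = 9.13e-04) and by 0.60 ± 0.16 in beta-catenin carcinomas (adjusted p = 0.0133; -0.51 with the control set as the block, adjusted p = 0.113). Slc1a1 (EAAC1) was called nowhere (0.01 to 0.33 over the 6 lesion types). The 3 proton-coupled carriers, Slc36a1, Slc36a2 and Slc36a3, which lie side by side on chromosome 10, were not called either.

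Slc7a6os, the opposite-strand neighbour of Slc7a6 on chromosome 19, was lower in both carcinoma groups. Surrounding liver ran from 7.41 to 7.93 (median 7.76), the carcinomas stood at 7.35, 7.26, 7.35 and 7.26, and the beta-catenin carcinomas at 7.33, 7.33, 7.35 and 7.05, all below it. It fell by 0.34 ± 0.10 in carcinomas (adjusted p = 0.0338) and by 0.38 ± 0.10 in beta-catenin carcinomas (adjusted p = 0.0109). With the control set as the block neither was called (-0.18 and -0.20; adjusted p = 0.266 and 0.190). The carcinoma call was also lost with quantile normalization (-0.31, adjusted p = 0.0515), without the 5 cholangiocyte-high arrays (-0.34, adjusted p = 0.0511) and in 7 of 26 fits that left out 1 array, and the beta-catenin call without its replicate 4 (-0.31, adjusted p = 0.05). Slc7a6 itself gave -0.01 and 0.01 in these groups (adjusted p = 0.982 and 0.974).

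Set against each other, the lesion types gave few calls. No member and no gene was called between adenomas and nodules, between the 2 carcinoma groups, or between FFPE adenomas and foci (0% of all genes in each, with limma). At an unadjusted p under 0.05 there were 17, 2 and 5 members and 2265, 723 and 633 genes. The uncalled differences reached from -1.19 (Slc6a13) to 1.24 (Slc6a6) between adenomas and nodules, and with no animal term 3 members were called there. Carcinomas and adenomas differed in Slc38a3, higher in carcinomas by 0.54 ± 0.14 (adjusted p = 0.0424), and in Slc7a6os, lower by 0.46 ± 0.12 (-0.46, adjusted p = 0.0409), where 2.95% of all genes were called, 1.17% higher and 1.78% lower. Only animal 23 gave both lesions. Both calls held with no animal term (0.66 and -0.43; adjusted p = 0.00397 and 0.0051), but with the control set as the block they were 0.34 and -0.17 (adjusted p = 0.929 for both), and without the 5 cholangiocyte-high arrays 0.57 and -0.48 (adjusted p = 0.0542 and 0.0758). They were also lost in 14 and 13 of 26 fits that left out 1 array. The adenoma effect was compared between frozen and FFPE tissue in a fit of all arrays, and no member differed (0.331% of all genes; 5 members and 1653 genes at an unadjusted p under 0.05). This fit read each gene from its frozen probe set in both preparations. By size the first 4 gaps were in Slc6a13 (-1.24 ± 0.44, adjusted p = 0.232), Slc1a3 (1.10 ± 0.39, adjusted p = 0.232), Slc43a1 (-1.01 ± 0.39, adjusted p = 0.291) and Slc7a1 (0.94 ± 0.37, adjusted p = 0.294), each with the larger change in frozen tissue. Next came Slc38a1 (-0.79 ± 0.27), with the lowest adjusted p of the members (0.212) and the larger change in FFPE tissue (0.73 in adenomas). Preparation and dissection cannot be told apart in this fit.

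Genes that carriers feed or answer to were described from 3 further lists. Of 34 measured genes of the amino acid response through ATF4, 9 were higher and 6 lower in frozen adenomas, 7 and 2 in carcinomas, and 14 and 3 in beta-catenin carcinomas, where the list's median change was 0.34 against -0.01 for all genes. All genes gave 15.4% higher and 9.57% lower, 4.48% and 6.91%, and 7.74% and 9.58% in turn. In foci 1 was higher and 2 lower and in FFPE adenomas 1 and 1, with list medians of -0.06 and -0.02 that lay near those of all genes. The serine synthesis enzymes Phgdh and Psat1 and the asparagine synthetase Asns led it, with 2.72, 1.67 and 2.54 in beta-catenin carcinomas (adjusted p = 8.42e-05, 1.51e-04 and 5.14e-04) and 2.68, 2.34 and 2.13 in frozen adenomas. Psat1 was already called in nodules (1.47, adjusted p = 0.0315) and foci (1.71, adjusted p = 0.0149). Cth, which makes cysteine from cystathionine, fell, by 2.07 in beta-catenin carcinomas and by 0.97 in foci. Atf4 itself was higher in beta-catenin carcinomas (0.53, adjusted p = 8.43e-04) and lower in frozen adenomas (-0.34, adjusted p = 0.0128).

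Of 26 measured genes of amino acid sensing at mTORC1, 4 were higher and 3 lower in beta-catenin carcinomas, 2 and 2 in carcinomas and 3 and 2 in adenomas, beside 17.3%, 11.4% and 25% of all genes called. Rragd, a Rag GTPase subunit, had the largest change (2.85 ± 0.63 in beta-catenin carcinomas, adjusted p = 0.00342), and Rragc rose in both carcinoma groups (0.72 and 0.49). Of 19 other carriers of amino acids and peptides, 6 were lower and 3 higher in frozen adenomas, and 4 were lower and none higher in each of carcinomas, foci and FFPE adenomas. In beta-catenin carcinomas 5 were lower and 1 higher, and in nodules 0 were called. All genes gave 9.57% lower and 15.4% higher in frozen adenomas, 6.91% and 4.48% in carcinomas, and 9.58% and 7.74% in beta-catenin carcinomas. In foci they gave 1.36% and 1.81%, and in FFPE adenomas 0.872% and 1.29%. Slc16a10 (TAT1), an exporter of aromatic amino acids, fell in all 5 lesion types but nodules (-1.87 to -1.47), and so did the mitochondrial carriers Slc25a13 (aspartate and glutamate) and Slc25a15 (ornithine), which serve the urea cycle. The peptide carrier Slc15a1 rose in frozen adenomas by 1.59 (adjusted p = 5.63e-05). These lists were compared with the same surrounding arrays as the members.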

How the data were processed

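The authors' deposited table holds log2 expression values of Affymetrix probe sets, and the sources used here do not state how they were normalized. Per the labels' protocols, frozen tissue was extracted with TRIzol and FFPE tissue was laser-captured first. Of 31042 probe sets, 20826 had 1 symbol, 436 several and 9780 none, and only the first were used, with 1 probe set per gene by highest mean within a preparation, which differs between preparations for Slc1a3, Slc6a8 and Slc7a1. limma 3.58.1 in R 4.3.3 was fitted to each preparation apart, with group and animal as terms and an intensity trend, and p-values were adjusted (Benjamini-Hochberg) over 14217 genes. The animal came from the titles, which for animal 21 the source animal labels contradict. Arrays of different groups, each less its group mean, correlated better within an animal than between animals (medians 0.127 and -0.025 in frozen, 0.11 and -0.04 in FFPE tissue). Alternatives were no animal term, the labelled control set as the block (frozen), no trend, quantile normalization, the mean of probe sets, a filter on dim genes and leaving out each array. The members and lists were chosen with earlier results of these data known. Named members were all that were called and a list of 27 textbook carriers, of which 25 were measured. The number of arrays limits the precision. The fits were tested on simulated data, where 92 of 100 genes changed by 1 on the log2 scale were recovered for frozen adenomas and 23 of 100 for FFPE adenomas. Foci gave 54 of 100, and false calls ran from 6 to 14 over the comparisons. Each run changed 100 genes by 1 and 100 by 2, with independent noise. That is a smaller share than was called in frozen adenomas, so recovery in the real fits can differ.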

Additional observations from a re-analysis of the deposited data

Results flagged for a closer look

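Within groups of 4 to 10 arrays, 11 of 128 tests found an end value far from its nearest neighbour, where chance gives about 1 in 20. In frozen tissue Slc6a8 was low in adenoma replicate 5 (7.05, nearest 7.74) and high in nodule replicate 4 (7.95, nearest 7.29) and surrounding replicate 1 (7.40, nearest 6.97). Slc6a9 was low in nodule replicate 4 (8.12, nearest 8.65), Slc7a5 in nodule replicate 5 (5.66, nearest 6.77) and Slc7a6os in beta-catenin carcinoma replicate 4 (7.05, nearest 7.33).

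In FFPE tissue Slc38a4 was low in surrounding replicate 1 (12.12, nearest 12.52), Slc6a2 in surrounding replicate 4 (3.6, nearest 5.80), Slc6a8 in adenoma replicate 1 (6.80, nearest 7.21) and Slc7a5 in foci replicate 9 (5.42, nearest 6.13). Slc7a2 was high in surrounding replicate 2 (9.42, nearest 8.76). In the arrays of animal C43, which enter no comparison, Slc43a1 lay above all surrounding liver, with a mean of 9.32 on the 2 frozen arrays against 7.73 to 8.96. Slc6a8 lay below all surrounding liver there, at 6.66 and 6.44 on the frozen arrays against 6.81 to 7.40, and at 5.99 on the FFPE array against a lowest of 6.03.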

How the results depend on the processing

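No called change turned its sign under any alternative run. Of the 43 called changes, 27 kept their call whichever array was left out, 37 with no animal term, 42 with no intensity trend, 40 with quantile normalization and 39 with the mean of probe sets. Of the 34 frozen ones, 21 kept it with the control set as the replicate block and 26 without the 5 cholangiocyte-high arrays, an alternative chosen after seeing the data. In frozen adenomas 5 members were called after the filter on dim genes and 8 with the control set as the block, against 13. In carcinomas the filter gave 5, against 9. The filter removed genes below the median gene, and all 27 called changes whose gene stayed in kept their call. On the frozen arrays 40 of the 50 members lay below that median. So did 9 of the 16 called there, Slc7a1, Slc7a5, Slc7a2 and Slc38a9 among them. In nodules the count was 0 with no replicate block, with the control set and without the cholangiocyte-high arrays, against 1. Between carcinomas and adenomas it was 10 with no replicate block, 4 with the mean of probe sets, 1 with quantile normalization, and 0 with the control set or without the cholangiocyte-high arrays, against 2. No replicate block gave 3 between adenomas and nodules, against 0, and 2 in FFPE adenomas, against 4. Leaving out 1 array gave 9 to 13 in frozen adenomas, 5 to 9 in carcinomas, 8 to 11 in beta-catenin carcinomas, 0 to 2 in nodules, 0 to 2 between carcinomas and adenomas, 4 to 5 in foci and 1 to 5 in FFPE adenomas. Over all genes, the control set as the block gave 2122 calls in frozen adenomas against 3555, 904 in carcinomas against 1620, 1444 in beta-catenin carcinomas against 2463, and 0 in nodules and between carcinomas and adenomas against 32 and 419. No replicate block gave 93 in nodules, 437 between adenomas and nodules, 2322 between carcinomas and adenomas and 161 in FFPE adenomas (307 with it). With no intensity trend foci gave 233 against 452 and FFPE adenomas 137 against 307. The cause of these changes was not tested.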
